A study of Arabidopsis thaliana with 12 samples.

Results

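The comparison described here set unstressed seedlings of the Arabidopsis thaliana mutant hai1-2 against unstressed seedlings of its wild type, Col-0. Its members were chosen by the sample titles, as the 3 arrays of hai1-2 and the 3 arrays of Col-0 at a water potential of -0.25 MPa, 6 of the 12 arrays in the series. Seedlings 7 days old, grown in continuous light on half-strength MS medium without sugar, were moved to fresh control plates at -0.25 MPa or to low water potential plates at -1.2 MPa, which had been soaked with polyethylene glycol. Whole seedlings were collected 96 h later. Each of 3 independent experiments gave 1 sample of each genotype on each kind of plate, so every hai1-2 array has a Col-0 partner from the same experiment. All groups share the Col-0 background, the medium and the transfer to new plates. The labels name 1 mutant allele and do not give the nature of its lesion, so nothing here separates the effect of the gene from that of the line.

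HAI1 encodes a clade A protein phosphatase of type 2C. These phosphatases are negative regulators of signalling by abscisic acid (ABA), the hormone that accumulates when plants lose water. They hold SnRK2 protein kinases inactive until receptors that have bound ABA capture the phosphatase, and the freed kinases then phosphorylate transcription factors that turn on genes of dehydration tolerance. HAI1 and its closest relatives are themselves induced by ABA and drought. The control plates therefore ask what the mutation does in seedlings that were not exposed to drought.

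Each array measured transcripts with 22746 probe sets, short probes grouped by target. Differences are given as hai1-2 minus Col-0 on log2(signal + 16), averaged over the 3 pairs, after the dimmest 25% of probe sets were left out. They were tested with limma, a linear model fitted across all probe sets, with p-values adjusted by the Benjamini-Hochberg method.

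On control plates the transcriptomes of both genotypes were close, and 2 of 17059 probe sets (0.0117%) passed an adjusted p of 0.05 in limma, 1 in each direction. QQS fell in hai1-2 and AT2G19970 rose. QQS was lower by a similar amount on stressed plates. AT2G19970 was not called there. Several transcripts that are abundant in stressed seedlings, among them DFR and the late embryogenesis abundant (LEA) gene AT3G02480, read higher on every unstressed hai1-2 array than on its partner, but none of them passed the test. Others that are more abundant in stressed seedlings, such as UF3GT and AT1G52100, read lower in all 3 pairs and were not called either. Of all probe sets tested, 10.6% had all 3 pairs higher in hai1-2 and 14.1% all 3 lower.

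Median signal lay between 194.7 and 206.7 on the 6 control arrays, and correlations between them lay between 0.964 and 0.982. RCA, a chloroplast protein of leaves, had signals of 22376 to 29708, and PYK10, a root beta-glucosidase, had signals of 14639 to 18032, so shoot and root were both present in every control sample. Col-0 replicate 3 stood apart in the ratio of signal at the 5′ end of a control transcript to that at the 3′ end, a measure of intact RNA, and was the lowest control array in 5 of 6 such ratios. For actin it read 0.0323 against 0.0680 to 0.117 on the other 5 by 1 control probe group and 0.268 against 0.368 to 0.564 by the other. For ubiquitin it read 0.244 against 0.279 to 0.425 and 0.657 against 0.679 to 0.976. Its GAPDH ratio was lowest by 1 group, at 0.438 against 0.631 to 0.931, and not by the other, at 0.983 against 0.850 to 1.03. The difference between genotypes had an SD across probe sets of 0.48 on the log2 scale in experiment 3, and of 0.36 and 0.34 in experiments 1 and 2.

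The annotation pairs no probe set with HAI1 or with any of the 9 clade A phosphatases in the list of that family, so the genotype labels could not be checked by the gene's own name. 1 probe set without a gene in the annotation separated the genotypes on stressed plates more than any other tested. On control plates it read 130.2, 164.1 and 94.5 in Col-0 and 110.9, 110.1 and 97.1 in hai1-2. These values overlapped, and the difference was -0.23 ± 0.17 on the log2 scale (SE, limma, adjusted p = 0.862). On stressed plates it read 2602.7, 3125.0 and 3173.5 in Col-0 against 373.3, 256.3 and 349.2 in hai1-2.

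QQS, on chromosome 3, encodes a small protein known only from Arabidopsis thaliana that alters the balance of starch and protein in leaves. Its signals on control plates were 1614.4, 1125.0 and 2493.2 in Col-0 and 550.9, 534.0 and 561.5 in hai1-2, in the order of experiments 1, 2 and 3. Every Col-0 array was above every hai1-2 array, and the mutant arrays lay close together (SD 13.9) while the wild type arrays spread widely (SD 693). On the log2 scale QQS fell by 1.57 ± 0.18 (SE of the limma fit, adjusted p = 0.0195), which left 0.338 of the wild type level. The 3 paired differences were -1.52, -1.05 and -2.12. In whole seedlings, fewer cells that express a gene and less of its RNA per cell cannot be told apart.

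The stressed plates give a second reading of QQS from other seedlings of the same experiments. There it averaged 1061 ± 122 in Col-0 and 365.8 ± 87.1 in hai1-2 (SD, n = 3), a fall (-1.52 ± 0.18 on the log2 scale, adjusted p = 0.0127), against 0.0645% of all probe sets called at -1.2 MPa. The paired differences on stressed plates were -1.61, -1.66 and -1.27. In limma's test of the change between plate types the genotype difference moved by 0.05 ± 0.26 (unadjusted p = 0.849). All 6 pairs ran the same way. The call on control plates was lost without experiment 1 (adjusted p = 0.0732), without the pairing of arrays by experiment (adjusted p = 0.269), with the 6 control arrays alone (adjusted p = 0.208), with no filter (adjusted p = 0.105) and without the intensity trend (adjusted p = 0.116), while the size of the difference stayed between -1.82 and -1.29 over the alternatives tried.

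AT2G19970, on chromosome 2, belongs to the family of pathogenesis-related 1 proteins, which are secreted and in part antimicrobial. Its signals on control plates were 73.7, 96.0 and 103.5 in Col-0 and 179.2, 334.1 and 336.7 in hai1-2. The groups did not overlap, and each mutant array exceeded its partner. In hai1-2 AT2G19970 rose by 1.44 ± 0.18 in log2 units (SE of the limma fit, adjusted p = 0.0229), or 2.72-fold, with paired differences of 1.12, 1.64 and 1.56. On stressed plates the signals were 492.3, 206.2 and 174.3 in Col-0 and 356.8, 216.3 and 205.4 in hai1-2, which overlapped, and the difference was -0.05 ± 0.18 (adjusted p = 0.966). The change between plate types was -1.50 ± 0.26 with an unadjusted p of 6.27e-05 and an adjusted p of 0.219, so the fit across all probe sets did not call the 2 plate types different. The call on control plates was lost without experiment 2 or 3 (adjusted p = 0.268 and 0.122), without the pairing (adjusted p = 0.999) and with the 6 control arrays alone (adjusted p = 0.208). It was also lost with no filter (adjusted p = 0.170), without the intensity trend (adjusted p = 0.116) and with an experiment block shared by both kinds of plate, and the differences ran from 1.13 to 1.60 over the alternatives tried. In the test of a change between plate types, 0.00586% of all probe sets were called, and the 1 called was the unnamed probe set described above.

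**Figure D1:**
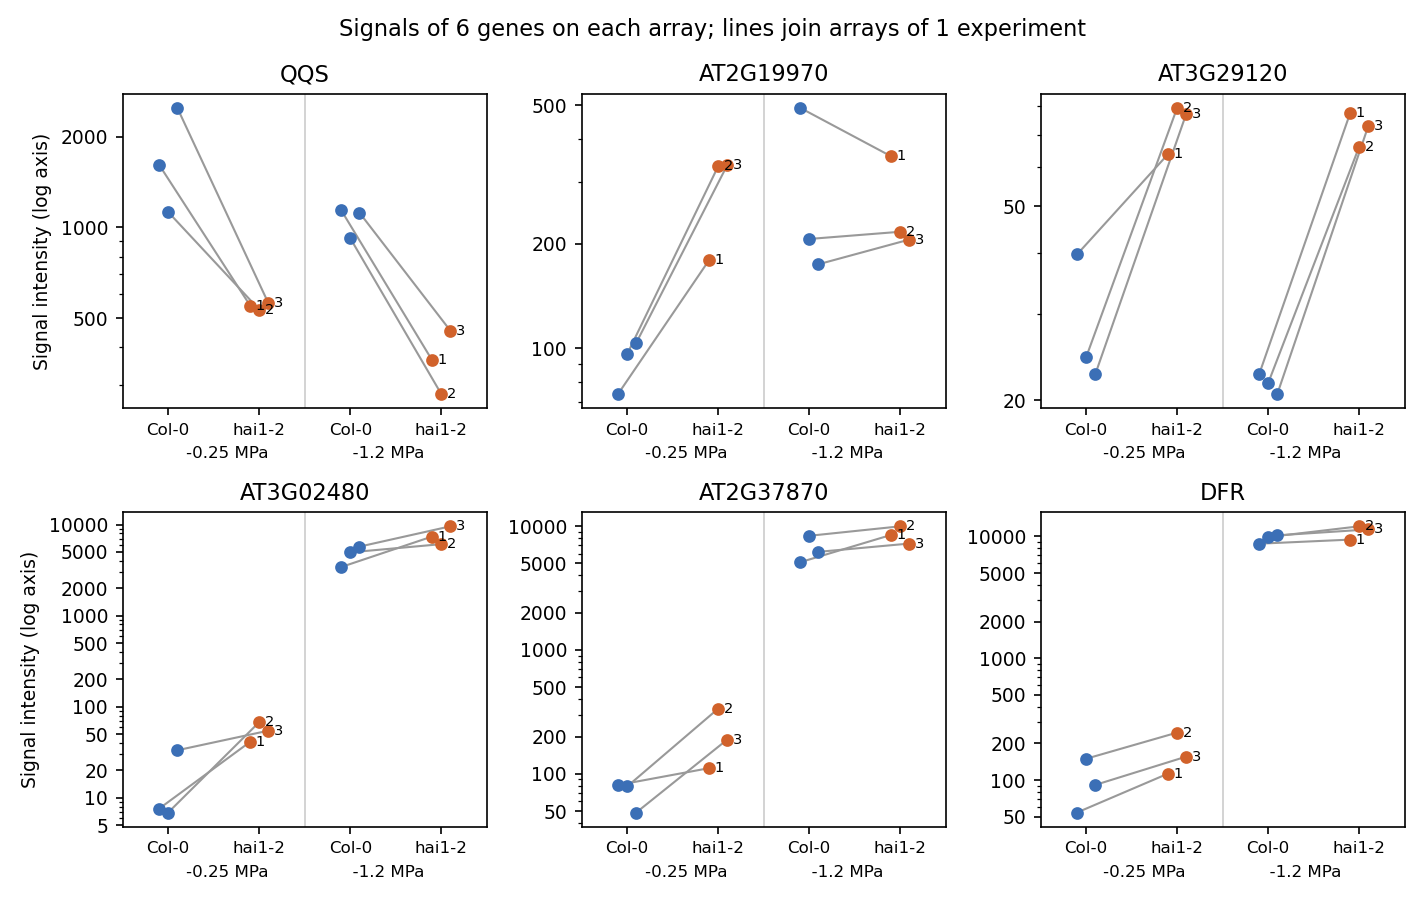
Signal intensity on a log axis for 6 genes on each of the 12 arrays, with Col-0 in blue and hai1-2 in orange, control plates on the left of each panel and stressed plates on the right. Lines join the 2 arrays of 1 experiment, numbered 1 to 3. QQS is lower in hai1-2 in all 6 pairs, AT2G19970 is higher in the 3 control pairs and in 2 of the 3 stressed pairs, and AT3G02480, AT2G37870 and DFR have signals of 3415.5 or more on stressed plates and at most 335.8 on control plates.

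Across all 17059 probe sets, mean differences ran from -1.72 to 1.58 on the log2 scale, and 90% of the distribution lay between -0.36 and 0.37. At an unadjusted p under 0.05 there were 1046 probe sets against 853 expected by chance, 505 (2.96%) higher in hai1-2 and 541 (3.17%) lower. All 3 pairs were higher in hai1-2 for 1816 probe sets (10.6%) and lower for 2405 (14.1%). Groups did not overlap for 492 (2.88%) with hai1-2 higher and for 602 (3.53%) with hai1-2 lower. A mean difference of 2-fold or more was seen for 35 probe sets, 19 up and 16 down, and 25 of these were in the dimmest of 4 equal bins by mean signal, where the spread was widest.

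For most probe sets a difference of 2-fold lay outside the 95% interval. That interval had a median half-width of 0.37 on the log2 scale, and the whole interval lay within 2-fold either way for 16170 probe sets, or 94.8%. This share was 98.6% in the brighter part of the probe sets and 91.0% in the dimmer part, split at the median. For 61.6% of probe sets the interval lay within 1.5-fold. These intervals hold for 1 probe set at a time and bound the size of a difference. They are not limits of detection under the adjusted test, in which the smallest difference called was 1.44 on the log2 scale. Changes smaller than that could go uncalled at this number of arrays, and larger ones were not always called. The lowest mean difference of all, -1.72, and the highest, 1.58, were both uncalled.

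**Figure D2:**
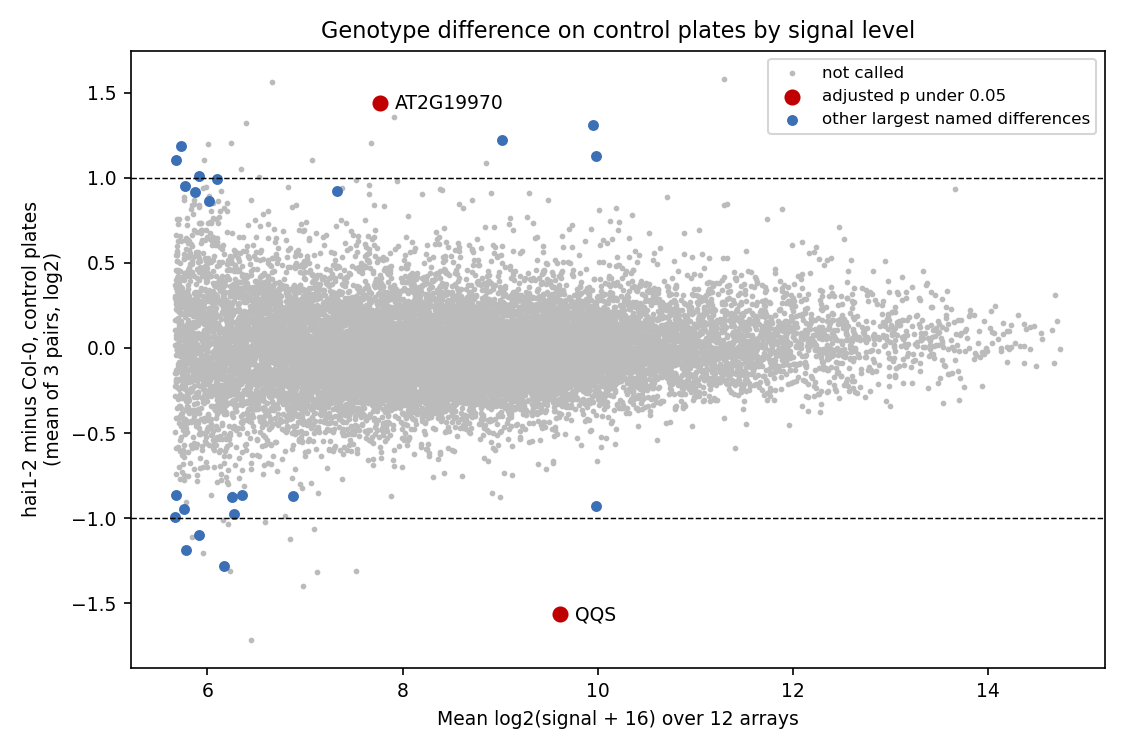
Mean genotype difference on control plates (log2, hai1-2 minus Col-0, mean of 3 pairs) against mean log2(signal + 16) over 12 arrays, for 17059 probe sets. Red points are QQS and AT2G19970, the 2 called, blue points are the other genes among the 12 highest and 12 lowest single-gene differences with groups that do not overlap, and dashed lines mark 2-fold. The cloud narrows from left to right, and most of the blue points lie at its dim end.

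On control plates, the experiments differed from each other more than the genotypes did. Summed over probe sets, the experiment accounted for 57.7% of the sum of squares, the genotype for 14.4% and the remainder for 28.0%. Per degree of freedom the mean squares averaged 0.163 for the experiment, 0.0812 for the genotype and 0.0791 for the remainder. The SD of the difference between 2 experiments within a genotype lay between 0.51 and 0.56 for Col-0 and between 0.34 and 0.51 for hai1-2. Pearson's r between the paired differences of 2 experiments was 0.00158, 0.0131 and 0.0120 on control plates, over 17059 probe sets, which are not independent and share arrays. On stressed plates the same r was 0.196, 0.234 and 0.160. The mean genotype difference on control plates and that on stressed plates had r = 0.0527 over the same probe sets.

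Below the 2 called genes, the smallest p-values held several genes with low signals on control plates and high signals on stressed plates. The filter and the intensity trend of the variances both used the mean signal over both kinds of plate. High stressed signals thus helped such genes to stay in the test, and their variances were moderated as those of brighter genes. In this way too, beyond the pooled spread, their p-values rest in part on the stressed plates. DFR, a dihydroflavonol reductase of anthocyanin synthesis, read 54.2, 149.7 and 91.3 in Col-0 and 113.1, 245.5 and 155.9 in hai1-2. The groups overlapped because the experiments differed, yet every mutant array exceeded its partner by a similar ratio. The difference was 0.74 ± 0.13 on the log2 scale (adjusted p = 0.271), with pairs of 0.88, 0.66 and 0.68, which did not pass the test. On stressed plates DFR averaged 9592 in Col-0 and 10968 in hai1-2.

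AT2G37870 and AT4G33550 belong to the lipid-transfer and seed storage albumin superfamily of small secreted proteins. AT2G37870 read 81.2, 79.0 and 48.7 in Col-0 and 111.1, 335.8 and 189.1 in hai1-2, a difference of 1.31 ± 0.23 that was not called (adjusted p = 0.271). AT4G33550 read 76.9, 94.2 and 104.0 in Col-0 and 128.8, 400.3 and 195.8 in hai1-2, a difference of 1.13 ± 0.20 that was not called either (adjusted p = 0.271). For both genes the groups did not overlap, and experiment 2 gave the highest mutant signal. On stressed plates they averaged 6543 and 5724 in Col-0 and 8549 and 7347 in hai1-2. Without experiment 1, in which its pair differed least, AT2G37870 passed the test at 1.78 ± 0.18 (adjusted p = 0.00589).

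AT3G02480 encodes a LEA protein, one of the hydrophilic proteins that accumulate in drying seeds and dehydrated tissue. It read 7.6, 6.9 and 33.3 in Col-0 and 41.2, 67.8 and 54.6 in hai1-2, so the groups did not overlap, at signals close to the 16 added to every value. The difference was 1.22 ± 0.22 (adjusted p = 0.271), and it was 0.58 and 2.04 with 64 and 1 added. Without experiment 3, in which its pair differed least, AT3G02480 passed the test at 1.57 ± 0.20 (adjusted p = 0.0452). On stressed plates AT3G02480 averaged 4695 in Col-0 and 7683 in hai1-2, a difference of 0.72 ± 0.22 (unadjusted p = 0.00690, adjusted p = 0.317).

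On the lower side, the unnamed probe set 251677_at read 40.2, 53.9 and 166.4 in Col-0 and 3.8, 3.0 and 37.8 in hai1-2, and its difference of -1.72 ± 0.26 was the lowest of all tested (adjusted p = 0.113). With 1 added before the log in place of 16 it was called (adjusted p = 0.0329). AT1G52100, a lectin of the jacalin family, read 1037.8, 481.7 and 604.1 in Col-0 and 418.7, 292.6 and 336.6 in hai1-2, which did not overlap, with a difference of -0.93 ± 0.18 (adjusted p = 0.304). After QQS it had the brightest control signal of the 12 lowest genes described below. On stressed plates its difference was 0.30 ± 0.18. AT1G76280, a pentatricopeptide repeat protein, read 82.4, 48.5 and 68.9 in Col-0 and 27.3, 18 and 9.5 in hai1-2, a difference of -1.28 ± 0.24 on control plates (adjusted p = 0.304) and 0.41 ± 0.24 on stressed plates.

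The 12 highest and 12 lowest single-gene differences, among probe sets whose 3 pairs ran one way and whose groups did not overlap, can be read a second time on the stressed plates. Those plates entered the choice only through the filter on mean signal over all 12 arrays. Dim genes such as AT3G02480, AT5G24600 and AT2G21510 read at most 67.8, 34.6 and 31.8 on control plates and averaged more in both genotypes on stressed plates. The 12 highest ran from 0.86 to 1.44 on control plates. At -1.2 MPa 8 of the 12 had the same sign, and 6 had it in all 3 pairs. The 12 lowest ran from -1.57 to -0.86, and 5 of them had the same sign at -1.2 MPa, 4 in all 3 pairs. Over all probe sets tested 49.7% had the same sign on both kinds of plate, and the share with that sign in all 3 stressed pairs was not counted. Control signals stayed under 200 on all arrays for 8 of the higher and 9 of the lower genes.

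Besides QQS, 3 of these 24 genes reached an unadjusted p under 0.05 with the same sign on stressed plates. They were AT3G02480, AT3G29120 and AT4G17410. Among all 17059 probe sets, 1510 reached that p in limma on stressed plates, whatever their sign on control plates. AT3G29120, which RefSeq annotates as a pseudogene, read 39.8, 24.5 and 22.6 in Col-0 and 63.9, 79.5 and 77.3 in hai1-2 on control plates, a difference of 1.01 ± 0.26 (adjusted p = 0.674). On stressed plates it averaged 21.6 ± 1.00 in Col-0 and 72.2 ± 5.69 in hai1-2 (SD, n = 3), a difference of 1.23 ± 0.26 with an unadjusted p of 4.18e-04 and an adjusted p of 0.105. Its groups overlapped on neither kind of plate, although neither difference was called. By its suffix, its probe set can also bind transcripts of related sequence. AT4G17410, a ubiquitin ligase, read 57.8, 96.0 and 108.4 in Col-0 and 34, 23.5 and 52.4 in hai1-2, a difference of -0.98 ± 0.25 on control plates and -0.58 ± 0.25 on stressed plates (adjusted p = 0.674 and 0.501).

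The other genes among the 12 highest, none of them called, were SP1L2, a microtubule-binding protein of the SPIRAL1 family (0.92 ± 0.19), the AP2/ERF transcription factor AT5G52020 (1.19 ± 0.43), the expansin-like gene EXLA3 (0.92 ± 0.43), the RefSeq pseudogene AT2G14650 (1.10 ± 0.30), AT5G38700, AT5G24600 and AT1G07270. SP1L2 was the only one of these 7 with a control signal above 200, and read 131.6, 129.7 and 87.4 in Col-0 and 214.2, 218.3 and 263.3 in hai1-2. EXLA3 had a difference of opposite sign on stressed plates, at -0.76 ± 0.43. By its suffix, the probe set of AT2G14650 can also bind other sequences, and its control signals were low, from 8.3 to 66.2. The others among the 12 lowest, also uncalled, were the pentatricopeptide repeat genes AT3G47840 (-1.19 ± 0.27) and AT2G37310 (-0.87 ± 0.27), the secretory fusion protein gene SEC1B (-0.87 ± 0.27, and -0.53 without experiment 3), AT5G63820, AT5G09500, AT2G21510, AT1G29270 and AT1G65570. Without experiment 3 AT5G09500 moved from -0.99 to -0.63 and AT1G29270 from -0.87 to -0.28.

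**Figure D3:**
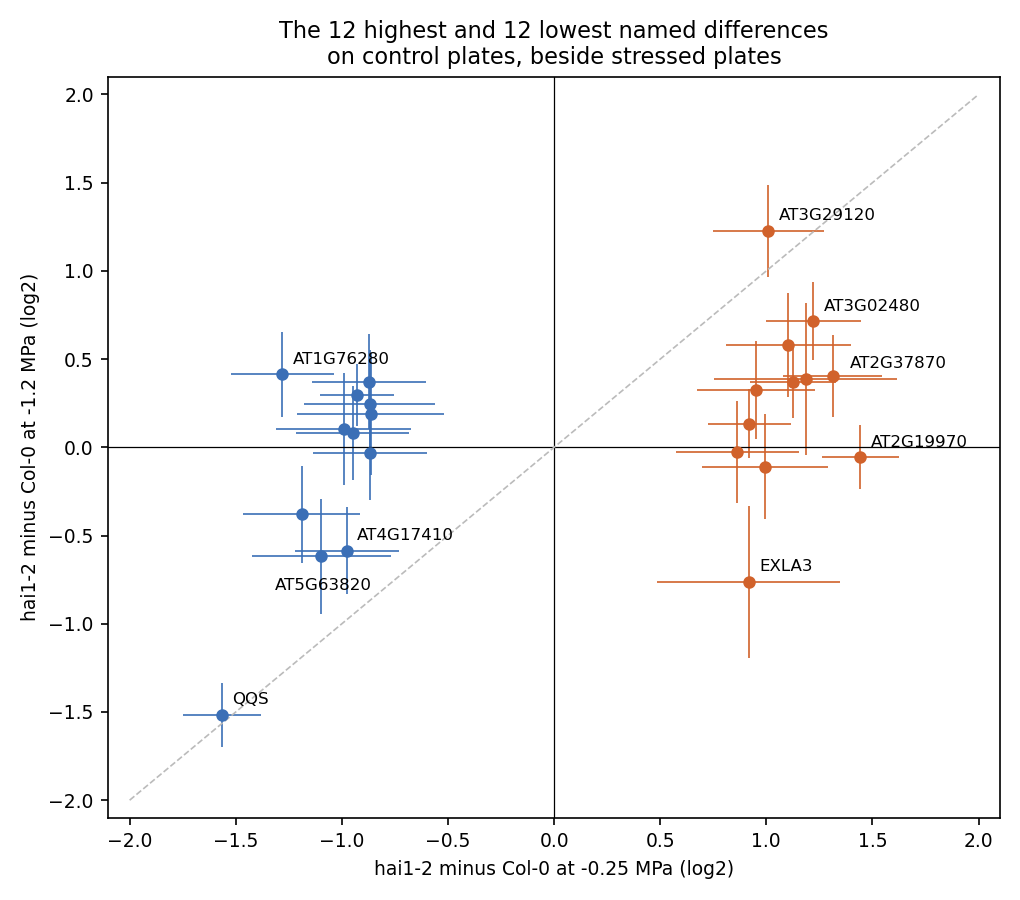
Genotype difference (log2, hai1-2 minus Col-0) at -0.25 MPa on the x axis and at -1.2 MPa on the y axis for the 12 highest (orange) and 12 lowest (blue) single-gene differences on control plates, with bars of 1 SE and a dashed line of equality. QQS at -1.57 and -1.52 and AT3G29120 at 1.01 and 1.23 lie near that line, and AT2G19970 at 1.44 and -0.05 and AT1G76280 at -1.28 and 0.41 lie away from it.

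Gene lists were described by their counts and medians beside those of all probe sets tested, whose median was -0.02 and of which 46.2% were above 0. QQS, in the list of starch and sugar genes, was the only called member of any list. That list had 19 tested members, with a median of -0.07. After QQS its lowest members were the sugar transporters SWEET3 (-0.40) and SWEET4 (-0.38) and the starch synthesis subunit APL4 (-0.39), none of them called.

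Of 20 tested genes for dehydrins and other LEA proteins, 15 were above 0 and none was called. The median was 0.28, 7 had all 3 pairs higher in hai1-2 (35% against 10.6% of all probe sets) and 1 had all 3 lower. The 20 were those of 29 measured that passed the filter on mean signal over both kinds of plate. Members dim on control plates could pass it through their stressed signals. AT3G02480 and LEA18, both higher in all 3 pairs, read at most 67.8 and 63.6 on control plates and at least 3415.5 and 452.4 on stressed plates. The share of 35% is thus for members chosen in part by stressed signal. The list's median was 0.10, 0.71 and -0.06 in experiments 1, 2 and 3, and 0.12 without experiment 2. On stressed plates it was 0.44. LTI30, a dehydrin, read 644.7, 998.1 and 859.3 in Col-0 and 787.0, 1435.1 and 1147.7 in hai1-2, a difference of 0.40 ± 0.14 (adjusted p = 0.808). COR15B, which protects chloroplasts in the cold, read 69.8, 198.3 and 411.4 in Col-0 and 291.5, 429.9 and 378.0 in hai1-2, a difference of 0.93 ± 0.27 (adjusted p = 0.808). The pair of experiment 3 ran the other way, without which the difference was 1.45, and the Col-0 arrays ranged more widely than the mutant ones. LEA18 (0.75 ± 0.25, adjusted p = 0.808) and COR47 (0.14 ± 0.14, adjusted p = 0.881) were higher in all 3 pairs, COR47 at signals of 4271 to 6284. Without experiment 3 the difference of LEA18 was 0.31.

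Other genes of the ABA response were few in the annotation. SAG29, a sugar transporter induced by ABA and senescence, read 15.6, 15.8 and 31.7 in Col-0 and 29.8, 48.2 and 41.7 in hai1-2, a difference of 0.61 ± 0.18 (adjusted p = 0.808). AT4G25580, HVA22C and the aldehyde dehydrogenase gene ALDH7B4 had differences of 0.96 ± 0.33, -0.21 ± 0.17 and -0.09 ± 0.14, and that of AT4G25580 was 0.47 without experiment 3. The 4 thus included values on both sides of 0, and none passed the test. In proline metabolism, DELTA-OAT, an ornithine aminotransferase, read 450.6, 416.1 and 441.3 in Col-0 and 424.8, 402.5 and 413.1 in hai1-2, a difference of -0.07 ± 0.13 (adjusted p = 0.936), and the proline dehydrogenase gene AT5G38710 had a difference of 0.02 ± 0.22 (adjusted p = 0.994). The genes of proline synthesis were not examined.

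Among 7 tested genes of anthocyanin and flavonoid synthesis, 4 were above 0, and DFR was the only one with all 3 pairs higher. The anthocyanin glycosyltransferase UF3GT read 42.3, 62.8 and 49.5 in Col-0 and 9.2, 39.6 and 29.0 in hai1-2, a difference of -0.75 ± 0.18 (adjusted p = 0.565), opposite to DFR. UGT78D1, a flavonol glycosyltransferase, was at -0.23 ± 0.16 (adjusted p = 0.852), with all 3 pairs lower. The list's median was 0.00.

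Transcripts of the plastid genome, which codes for core photosynthesis proteins and plastid ribosomes, had 68 tested probe sets. None was called. They had a median of 0.11, and 50 were above 0, as were 46.2% of all probe sets. All 3 pairs were higher in hai1-2 for 18 (26.5% against 10.6% of all probe sets). None had all 3 lower, against 14.1% of all probe sets. In experiments 1 and 2 their medians were 0.29 and 0.33, and in experiment 3, which holds the Col-0 array with the lowest actin ratio, -0.30. On stressed plates the median of their mean differences was -0.09. Over all tested probe sets the medians were -0.00, -0.00 and -0.06. Without experiment 3 the plastid median was 0.31, and without experiment 1 it was -0.01. These transcripts share an organelle and in part operons, so they are not independent, and the part of RNA quality in these values was not tested.

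The plastid transcripts did not move as 1 block in experiment 3. psbD, for a reaction centre protein of photosystem II, read 2364, 2498.7 and 591.9 in Col-0 and 3209.5, 4540.6 and 1545.0 in hai1-2, a difference of 0.89 ± 0.17 (adjusted p = 0.325). rbcL, for the large subunit of Rubisco, read 2556, 3329.5 and 1050.9 in Col-0 and 3985.1, 4638.5 and 2829.5 in hai1-2, a difference of 0.84 ± 0.18 (adjusted p = 0.364). In both genes Col-0 replicate 3 was the lowest control array and its partner was above it by more than in the other pairs. Within each genotype, experiment 3 gave the lowest signal of both genes on both kinds of plate. On its stressed plates psbD read 540 in Col-0 and 621.3 in hai1-2, and rbcL 1953 and 1178.6. Without experiment 3 the differences on control plates were 0.65 and 0.56. atpB, for a subunit of the ATP synthase, read 24865, 30188 and 29734 in Col-0 and 31172, 32698 and 27345 in hai1-2, with pairs of 0.33, 0.12 and -0.12. For rps18, a ribosomal protein gene, the pair of experiment 3 was -1.15. Nuclear genes of photosynthesis, 16 in number, had a median of 0.05, and LHCB4.1, a light-harvesting protein, was at 0.25 ± 0.14 (adjusted p = 0.842).

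**Figure D4:**
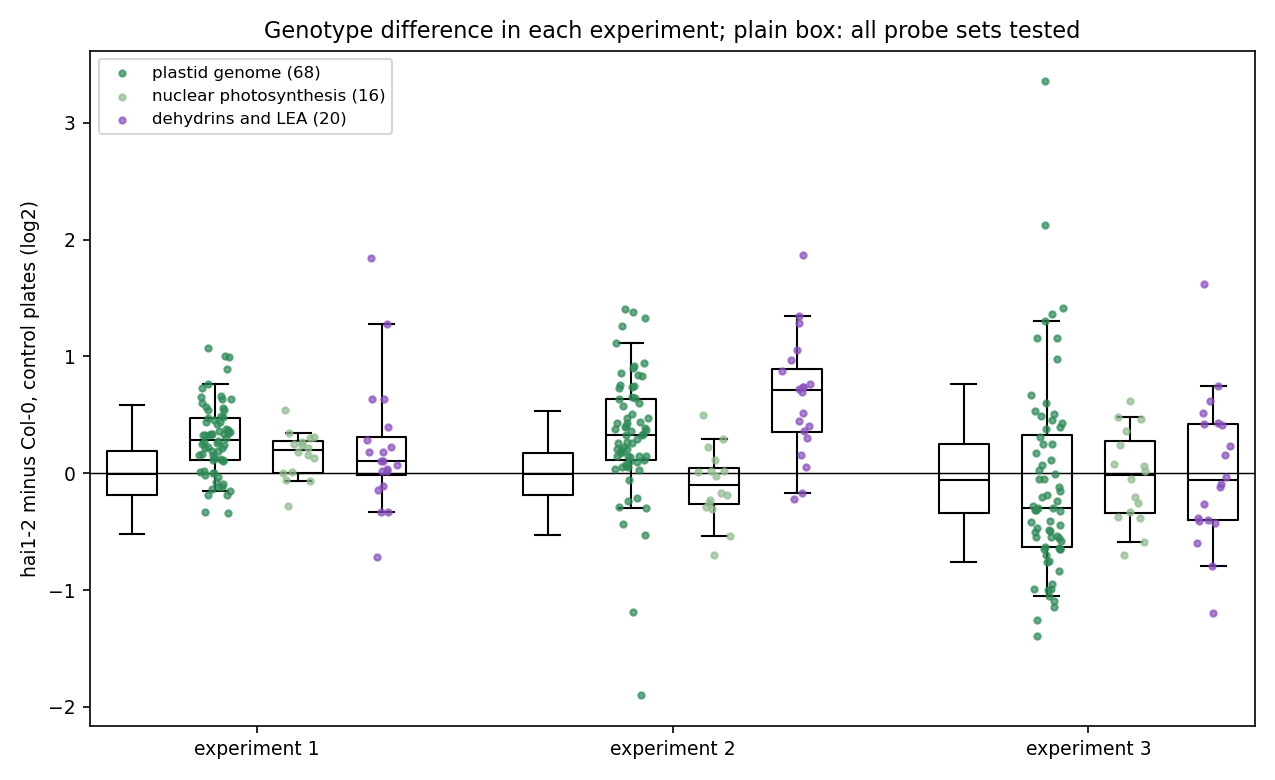
Genotype difference on control plates (log2, hai1-2 minus Col-0) in each experiment for 68 plastid probe sets, 16 nuclear photosynthesis genes and 20 genes of dehydrins and LEA proteins, beside a plain box for all 17059 probe sets. Boxes span the quartiles with the median, whiskers the 5th to 95th percentile, and points are members. The plastid median is 0.29 and 0.33 in experiments 1 and 2 and -0.30 in experiment 3, and the LEA median is 0.71 in experiment 2 alone.

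Genes of growth had no called member. Of 21 expansins and xyloglucan endotransglucosylases, which loosen and remodel the cell wall, 15 were above 0, with a median of 0.19. All 3 pairs were higher for 4 of them (19.0% against 10.6% of all probe sets). The list's median was -0.03, 0.13 and 0.27 in experiments 1, 2 and 3. EXPA15 read 1612.7, 1302.3 and 664.9 in Col-0 and 1675.3, 1650.1 and 1433.7 in hai1-2, a difference of 0.49 ± 0.18 (adjusted p = 0.808) that was 1.09 in experiment 3 and 0.05 and 0.34 in the other experiments. Without experiment 3 it was 0.20. On stressed plates its difference was -0.82 ± 0.18. Lists of 36 other cell wall genes, 8 tubulins and actins and 6 cell division genes had medians of 0.04, 0.11 and 0.01. The 6 genes of roots and root hairs had a median of 0.01, and PYK10 was at -0.02 ± 0.15.

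Defence genes and autophagy genes were not called either. PDF2.1, a plant defensin, read 177.9, 239.3 and 180.4 in Col-0 and 331.9, 382.1 and 308.6 in hai1-2, which did not overlap, with a difference of 0.74 ± 0.15 (adjusted p = 0.364) and pairs of 0.84, 0.64 and 0.72. WRKY53, a transcription factor of senescence and defence, was at -0.74 ± 0.27 (adjusted p = 0.808), and at -0.45 without experiment 3. The 19 tested genes of salicylic acid and pathogen defence had a median of 0.13. Of 14 genes of autophagy and senescence 11 were below 0, with a median of -0.16, and ATG8E and ATG8B, which code for proteins of the autophagosome membrane, were at -0.58 ± 0.23 and -0.45 ± 0.17 (adjusted p = 0.808 for both). Without experiment 3 they were at -0.37 and -0.21. Heat shock proteins and chaperones (9) had a median of -0.19, detoxification and redox enzymes (66) -0.02, and calcium signalling genes (24) -0.03.

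Hormone lists were small. Auxin response genes (9) had a median of -0.12, jasmonate response genes (7) -0.11, and genes of gibberellin, brassinosteroid and cytokinin (4) 0.07. The list of ethylene response had 3 tested members, matched by symbol pattern only, so membership does not show a role in that response. In it ORA47 read 156.8, 118.7 and 78.8 in Col-0 and 641.7, 227.5 and 81.2 in hai1-2. Its difference was 0.94 ± 0.41 (adjusted p = 0.808) with pairs of 1.93, 0.85 and 0.04. In the list of nutrient starvation, BHLH101, an iron-deficiency transcription factor, read 58.5, 122.0 and 157.9 in Col-0 and 69.7, 8.5 and 38.9 in hai1-2, a difference of -1.32 ± 0.40 (adjusted p = 0.808) with its first pair at 0.20. For both genes the pairs disagreed by more than the mean difference.

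**Figure D5:**
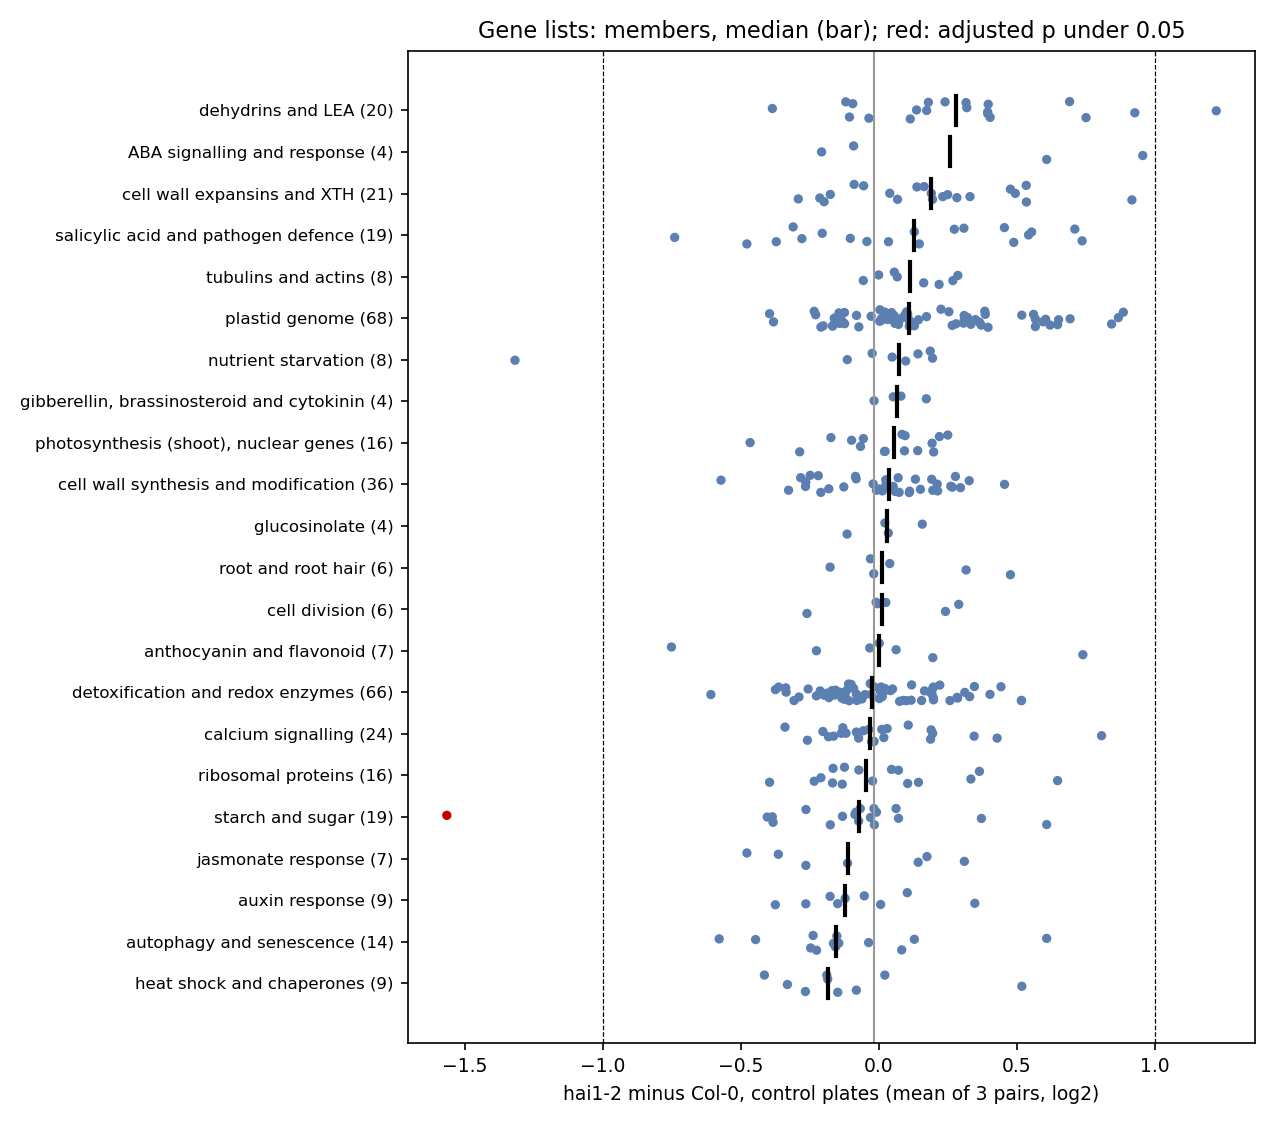
Mean genotype difference on control plates (log2, hai1-2 minus Col-0, 3 pairs) for the tested members of each list with at least 4 of them, with the number tested in brackets, the median as a black bar and the median of all probe sets as a grey line. Dashed lines mark 2-fold. QQS, in red among starch and sugar genes, is the only called member, and list medians run from -0.19 to 0.28.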

How the data were processed

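Biotin-labelled cRNA of whole seedlings was hybridised to 12 one-colour Affymetrix arrays, 1 per sample. The authors deposited linear signal intensities made with MAS5, per the submitters' processing notes. Its version and scaling target were not given in the sources used here. They were used without further normalization, as log2(value + 16), which understates changes of dim probe sets. The 64 control probe sets and the lowest 25% of the others by mean log2 were left out, which left 17059 of 22746. The 12 arrays entered 1 linear model in limma (version 3.58.1, R 4.3.3, files read with data.table version 1.17.8), with the experiment within each kind of plate as a block, a genotype difference on each, and variances moderated along an intensity trend. Tests were two-sided and adjusted by Benjamini-Hochberg, with calls at an adjusted p under 0.05. SEs come from this fit, with 1 spread per probe set for both kinds of plate, and SDs from the signals. The number of arrays limits the precision, with 4 residual degrees of freedom and 8.79 from the moderation.

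The replicate number marks an independent experiment, per the series' design text, so it pairs the samples. As a check, deviations from the group means of same-numbered arrays correlated at 0.517, 0.350 and 0.128 on control plates and at 0.263, 0.227 and 0.236 on stressed plates. Arrays of different number correlated at -0.422 to 0.164 on control plates and at -0.136 to -0.104 on stressed plates. The 0.164, for Col-0 of experiment 2 with hai1-2 of experiment 3, exceeded the 0.128 within experiment 3. On control plates the check thus did not single out the pairing of experiment 3. The tests were also tried on simulated data, with errors drawn independently for each probe set and array. That trial does not bear on errors shared across an array.

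A platform annotation, with symbols updated from the TAIR10.1 assembly's gene table, gave the names. It has 1 gene for 13513 probe sets, several for 503 and none for 8730. Those without 1 gene are left unnamed. Genes were named by rule: called ones, the 12 highest and 12 lowest differences with 3 pairs one way and no overlap, the 3 smallest p-values per direction, up to 4 members of each list by p and 3 by level, all members of the proline and ABA lists, and 1 unnamed probe set picked for its difference on stressed plates. Other list members given were picked by their values after these were seen. The comparison, lists and rule were chosen with earlier results of these data known. The plastid and nuclear photosynthesis lists were added after the data were seen, and lists overlap. 8 plastid ribosomal genes with symbols like those of resistance genes were taken out of the defence list, and 8 genes whose symbol or family matched but whose known role did not, among them a chitinase with the symbol CHI, out of 5 other lists. No aquaporin and no clade A phosphatase was measured by name. No sequences were used. Alternatives changed the block, arrays, pseudocount, filter, normalization, variance model and threshold, and left out each experiment in turn.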

Additional observations from a re-analysis of the deposited data

Results flagged for a closer look

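For the unnamed probe set that differed most between genotypes on stressed plates, the genotype difference itself differed between kinds of plate. It was -0.23 on the log2 scale on control plates and -3.13 on stressed plates, and the test of that change gave -2.91 ± 0.25 (limma, adjusted p = 5.21e-04), with the mutant lower in all 3 stressed pairs and in 2 of 3 control pairs.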

How the results depend on the processing

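The count of 2 called probe sets depended on the fit. With no replicate block, 0 were called (546 at an unadjusted p under 0.05, smallest adjusted p 0.269), and 1 (QQS) with a replicate block shared by both kinds of plate. With only the 6 control arrays, 0 were called with the block or without it (687 and 276 at an unadjusted p under 0.05). Without the intensity trend and without the filter, 0 were called as well (1034 and 1371 at an unadjusted p under 0.05), and with the lowest 50% removed, which took out AT2G19970, 1 (QQS). With 1 added, 3 were called, and with 64 added, quantile normalization, median centring, robust moderation or an adjusted p of 0.10, 2. Leaving out an experiment gave 1 to 3 calls: QQS without 2, QQS and AT3G02480 without 3, and without 1 AT2G19970, AT2G37870 and ICL, the last chosen after its value was seen. Adjusted p ranged from 0.0113 to 0.269 for QQS and from 0.0177 to 0.999 for AT2G19970 over these alternatives, and neither changed sign. Of 794 values of 64 named probe sets, 777 kept sign and side of the threshold, 11 lost a call, 3 gained one and 3 changed sign: AT5G38710 (-0.0042 with 64 added, -0.247 to 0.191 leaving out an experiment) and ALDH7B4 (-0.249 to 0.0476 leaving out an experiment). The plastid median ran from -0.0116 to 0.309 and the LEA median from 0.12 to 0.38 leaving out an experiment. With the lowest 50% removed, 2761 probe sets had all 3 pairs one way, of 11373. Median centring moved the share above 0 from 46.2% to 52.1%. On stressed plates 11 calls became 1 with no replicate block and 30 with 64 added. Causes were not tested, other than fewer arrays or probe sets by construction. Dim probe sets limit precision most.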
